A study of Mus musculus with 6 samples.

Results

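Elastic fibres give stretch and recoil to connective tissue, and fibroblasts are one of their sources. Cells first lay down microfibrils of fibrillin with associated glycoproteins, and tropoelastin, the soluble product of Eln, is then deposited on that scaffold with the help of fibulins. Copper-dependent lysyl oxidases oxidise lysines of tropoelastin and collagen, which allows the chains to become crosslinked. The set described here was fixed by name and holds 10 genes, all of which were among the 24062 gene symbols of the count table. They are Eln, the fibrillins Fbn1 and Fbn2, the microfibril-associated glycoproteins Mfap4 and Mfap5, the fibulins Fbln1, Fbln2 and Fbln5, and the enzymes Lox and Loxl1. All 10 passed the filter on low counts.

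Messenger RNA was counted by sequencing in mouse embryonic fibroblasts of the C57BL/6 strain, which are mixed primary connective tissue cells grown from embryos. There were 3 libraries of cells that received p27 by lentivirus (p27OE) and 3 libraries labelled EV control, an abbreviation that the labels do not spell out, all at day 10. The inhibitor p27, which restrains the kinases that drive the cell cycle, is the product of Cdkn1b. The sample titles and the treatment protocol call p27OE cells senescent and the design text calls them non-senescent, so the groups are compared here under their names alone. Whether replicates within a group derive from separate embryos, cultures or transductions is not labelled, and p-values then measure only the spread between these samples, which may be partly technical.

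Library totals ran from 43621464 to 48014367 counts in p27OE and from 39183624 to 61219345 in EV control. Cdkn1b, the gene introduced, was at 167, 232 and 337 CPM in p27OE libraries 1, 2 and 3, against 43.9, 31.5 and 32.3 CPM in EV control libraries 1, 2 and 3. CPM is a gene's count per 1000000 counts of its library, after scaling. The libraries of 1 group were not alike. The summed CPM of the Y-linked genes Ddx3y, Eif2s3y, Kdm5d and Uty, called the Y-linked level below, was 1.95, 57.1 and 137 in p27OE 1, 2 and 3, against 0.125, 126 and 124 in EV control 1, 2 and 3. Each group thus held 1 library of low level, the one numbered 1, and results that rest on these libraries are given with and without them. Of the 8 fibroblast markers, Col1a1, a chain of collagen I, was the most abundant, between 12835 and 20601 CPM. Not all were abundant in every library. Lum and Dcn, named after their values were seen, lay between 4.18 and 85.4 CPM and between 8.27 and 92.7 CPM. Endothelial markers summed to 9.49 to 12.4 CPM in p27OE and 9.76 to 11.5 CPM in EV control, most of it Egfl7 and Tek, with Pecam1 and Cdh5 under 0.2 CPM. Epithelial markers summed to 3.90 to 8.15 CPM in p27OE and 1.95 to 4.48 CPM in EV control, Krt18 being the most abundant. Macrophage markers summed to 14.9 to 29.2 CPM in p27OE and to 62.4, 15.2 and 13.5 CPM in EV control 1, 2 and 3, so they were highest in EV control 1.

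No gene of the 10 differed between p27OE and EV control past the test threshold when group was the only term, and the spread between libraries of 1 group was wide for several of them. Fbln1 came closest, at 32.1 ± 13.5 CPM in p27OE and 67.0 ± 16.7 CPM in EV control (SD, n = 3 each), and was the only member whose groups did not overlap. Eln varied more than any other member, 17.6-fold between its highest and its lowest library, but its high and low libraries were found in both groups. Lox, Loxl1 and Mfap5 varied least, by 1.22-fold, 1.22-fold and 1.32-fold over all 6 libraries.

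By edgeR's quasi-likelihood test with Benjamini-Hochberg adjustment over all genes, 0 of 10 members passed an adjusted p of 0.05, where 2.61% of the 13990 genes tested did, 1.77% higher and 0.843% lower in p27OE. At an unadjusted p under 0.05, 1 of 10 members lay, against 26% of all genes. DESeq2 called 1 member, Fbln1, against 16.6% of all genes, and limma-voom called 0, against 3%. Groups did not overlap for 1 of 10 members, against 33.3% of all genes, and that member, Fbln1, lay lower in p27OE, as did 16.5% of all genes. Log2 fold changes lay above 0 for 4 members and below 0 for 6, against 48.2% of all genes below 0, with a median of −0.11, and the median over all genes tested was 0.01. As bulk RNA was counted, fewer cells of a type and less RNA per cell cannot be told apart in any of these values.

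**Figure D1:**
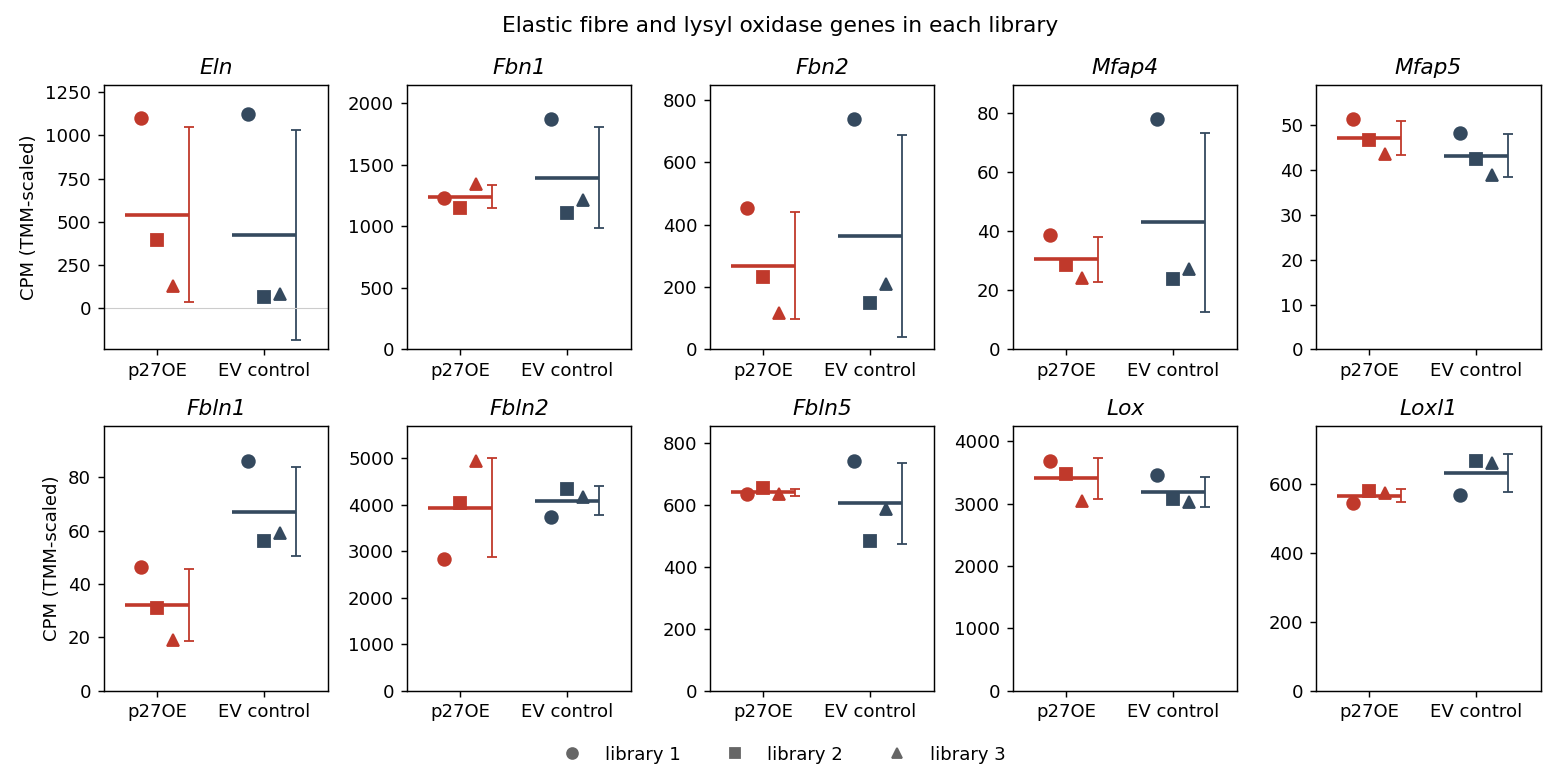
CPM of each of the 10 genes in the 3 p27OE libraries (red, left) and the 3 EV control libraries (dark, right). Symbols mark the library number, horizontal bars the group means, vertical bars the SD (n = 3), and each vertical axis has its own range. Eln, Fbn2 and Mfap4 were highest in the libraries numbered 1 of both groups, and for Fbln1 the groups did not overlap.

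The members also differed in how abundant their transcripts were. Levels of different genes were compared as CPM per kilobase of merged exons (GENCODE M21). Lox stood highest, at 713 ± 68.9 CPM per kilobase in p27OE and 668 ± 50.1 in EV control (SD, n = 3), with Fbln2 next at 619 ± 168 and 642 ± 48.5. The ranges of these 2 genes over the 6 libraries overlapped. Loxl1, with a mean of 182 CPM per kilobase over both groups, was below both in every library and above Fbn1 in every library. Fbn1 (109), Fbln5 (90.1), Eln (59.5), Fbn2 (23.9), Mfap4 (19.1), Mfap5 (12.6) and Fbln1 (11.3) followed, given as the mean of CPM per kilobase over both groups, and each of these overlapped in range with its neighbour in this order. The 10 genes together took 1.10%, 1.08% and 1.04% of all counts in p27OE 1, 2 and 3, against 1.27%, 0.990% and 0.995% in EV control 1, 2 and 3.

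Eln, which encodes tropoelastin, lies on chromosome 5 at 134702593 to 134747323 (GRCm38, minus strand). It was at 1103, 394 and 127 CPM in p27OE 1, 2 and 3, against 1124, 63.8 and 81.4 CPM in EV control 1, 2 and 3. The libraries numbered 1 were nearly equal and highest, p27OE 2 was between, and the remaining 3 were low. EV control 1 was 15.5-fold above the mean of the other 2 EV control libraries, and p27OE 1 was 8.68-fold above p27OE 3. Of all genes tested, 0.508% had a wider range between libraries on the log2 scale. Its log2 fold change, p27OE over EV control, came to 0.36 ± 1.25 (SE; edgeR adjusted p = 0.885). Its sign turned when p27OE 1 (−0.71), EV control 2 (−0.15) or EV control 3 (−0.13) was left out, and it was 2.89 without EV control 1.

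Within a like Y-linked level, Eln differed little between the libraries numbered 1, with p27OE 1 at 0.982 times EV control 1. Among libraries of high level, p27OE 3 was 1.75 times the mean of EV control 2 and 3. These are single libraries and were not tested. Without both libraries numbered 1, Eln was higher in p27OE by 1.83 ± 0.53 on the log2 scale (SE; edgeR adjusted p = 0.0735), and p27OE 2, of intermediate Y-linked level, was the highest library of that comparison. In a model that also held the Y-linked level, the value was 0.57 ± 0.21 (SE; edgeR adjusted p = 0.0698). Eln therefore passed in neither.

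The genes whose pattern over the 6 libraries came closest to that of Eln were Igf1, Mest and Arhgap20, among 10364 genes of at least moderate level. Likeness was the root mean square difference of centred log2 CPM, which was 0.24, 0.27 and 0.29 for these genes. Igf1, which encodes the growth factor IGF1, was at 61.1, 18.1 and 5.67 CPM in p27OE 1, 2 and 3, against 39.5, 3.56 and 4.50 CPM in EV control 1, 2 and 3. Mest, an imprinted gene, was at 519, 144 and 35.3 CPM in p27OE and at 314, 24.6 and 30.3 CPM in EV control, in the same order of libraries. Both were picked for their likeness to Eln, and so were high in the libraries numbered 1 and intermediate in p27OE 2, as Eln was. Of the 8 fibroblast markers, 6 were highest in the library numbered 1 of both groups, and the other 2, Thy1 and Vim, were lowest there. The share of all genes with either order was not counted. Among the 6, the small proteoglycan gene Dcn, named after its values were seen, was at 92.7, 25.2 and 8.43 CPM in p27OE and 76.1, 11.2 and 8.27 CPM in EV control. Thy1, a surface protein of fibroblasts named on the same basis, was at 355, 441 and 496 CPM in p27OE and at 453, 595 and 627 CPM in EV control.

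Among the microfibril genes, Fbn1 and Mfap5 varied by 1.69-fold and 1.32-fold over the 6 libraries, and Fbn2 and Mfap4 by 6.31-fold and 3.26-fold, with the libraries numbered 1 highest in each group. Fbn1 encodes fibrillin-1, the main structural unit of microfibrils, whose mutation causes Marfan syndrome in humans (chromosome 2, 125300594 to 125507993). It was at 1229, 1152 and 1342 CPM in p27OE 1, 2 and 3, against 1868, 1106 and 1211 CPM in EV control 1, 2 and 3, with EV control 1 above all others. It differed between groups by −0.17 ± 0.21 on the log2 scale (SE; edgeR adjusted p = 0.652), and by 0.083 without EV control 1. Of the merged exon bases of Fbn1, 20.1% also lie in an annotated gene on the opposite strand, and whether reads were counted by strand is not given in the sources used here.

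Fbn2 encodes fibrillin-2, a fibrillin made mostly in development (chromosome 18, 58008623 to 58210487). It was at 454, 233 and 117 CPM in p27OE 1, 2 and 3, against 738, 148 and 209 CPM in EV control 1, 2 and 3. The libraries numbered 1 were highest in both groups, and EV control 1 was 4.14-fold above the mean of the other 2 controls. Over all libraries it differed on the log2 scale by −0.44 ± 0.72 (SE; edgeR adjusted p = 0.739), and it turned to 0.58 without EV control 1. At a like Y-linked level, p27OE was lower on both sides, p27OE 1 at 0.615 times EV control 1 and p27OE 3 at 0.656 times the mean of EV control 2 and 3. These ratios rest on single p27OE libraries and were not tested. The remaining library, p27OE 2, of intermediate level, lay above EV control 2 and 3. In the model with the Y-linked term Fbn2 was called, lower in p27OE, at −0.58 ± 0.12 (SE; edgeR adjusted p = 0.0116), as were 34% of all genes in either direction. Without both libraries numbered 1 its value was −0.04 ± 0.35 (edgeR adjusted p = 0.946).

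Mfap4, a fibrinogen-domain glycoprotein of microfibrils (chromosome 11, 61485431 to 61488900), was at 38.8, 28.6 and 24.1 CPM in p27OE 1, 2 and 3, against 77.8, 23.9 and 27.1 CPM in EV control 1, 2 and 3. EV control 1 was highest, 3.05-fold above the mean of the other 2 controls. Its log2 difference of −0.49 ± 0.47 (SE; edgeR adjusted p = 0.561) became 0.25 without EV control 1. Mfap5, also called MAGP-2 (chromosome 6, 122505845 to 122529290), was at 51.3, 46.6 and 43.6 CPM in p27OE and 48.3, 42.5 and 38.8 CPM in EV control, in the same order. Its groups overlapped and the log2 difference between them was 0.13 ± 0.11 (SE; edgeR adjusted p = 0.496).

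The 3 fibulins, secreted proteins built on repeats like epidermal growth factor, did not move alike. Fbln1, a fibulin of basement membranes and elastic tissue (chromosome 15, 85205949 to 85286535), was at 46.2, 31.0 and 19.2 CPM in p27OE 1, 2 and 3, against 86.2, 55.9 and 59.0 CPM in EV control 1, 2 and 3. Every p27OE library was below every EV control library, and the libraries numbered 1 were the highest of their groups. The fold change was 0.480, or −1.06 ± 0.33 on the log2 scale (SE; edgeR adjusted p = 0.110). At a like Y-linked level, p27OE 1 was at 0.536 times EV control 1, and p27OE 3 at 0.333 times the mean of EV control 2 and 3. These ratios, too, rest on single p27OE libraries and were not tested. Fbln1 was called, lower in p27OE, in the model with the Y-linked term (−1.24 ± 0.11, SE; edgeR adjusted p = 0.00081). It was also called without both libraries numbered 1 (−1.21 ± 0.23, SE; edgeR adjusted p = 0.0336) and by DESeq2 (adjusted p = 0.0112). At these settings 34%, 16.7% and 16.6% of all genes were called, in the same order. When each library was left out in turn the Fbln1 value stayed between −1.43 and −0.80, with edgeR adjusted p from 0.0917 to 0.278. With those omissions 0.00701% to 12.9% of all genes were called.

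Fbln2, the most abundant member by count (chromosome 6, 91212455 to 91272540), was at 2825, 4051 and 4951 CPM in p27OE 1, 2 and 3, against 3749, 4350 and 4174 CPM in EV control 1, 2 and 3. Here the libraries numbered 1 were the lowest of their groups, and p27OE held both the lowest and the highest library. Its log2 difference between groups was −0.05 ± 0.21 (SE; edgeR adjusted p = 0.896). Fbln5, which binds tropoelastin and is needed for normal elastic fibres in mice (chromosome 12, 101746565 to 101819055), was at 635, 654 and 634 CPM in p27OE and 743, 484 and 587 CPM in EV control. The p27OE libraries lay close together and inside the range of the EV control libraries, and the log2 difference was 0.08 ± 0.16 (SE; edgeR adjusted p = 0.775).

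The promoters of Fbln1 and Fbln5 are shown because these fibulins differed most and little between the groups. The 250 bases before the most upstream RefSeq start are printed 5′ to 3′ (GRCm38.p6), with capitals for matches, on either strand, to the letters of 3 motifs. The GC box was searched as GGGCGG. For the TATA box the letters were TATAAA. The E-box was taken as CACGTG. The window of Fbln1 is on the plus strand of chr15:85205699-85205948, and that of Fbln5 on the minus strand of chr12:101819120-101819369.
Fbln1: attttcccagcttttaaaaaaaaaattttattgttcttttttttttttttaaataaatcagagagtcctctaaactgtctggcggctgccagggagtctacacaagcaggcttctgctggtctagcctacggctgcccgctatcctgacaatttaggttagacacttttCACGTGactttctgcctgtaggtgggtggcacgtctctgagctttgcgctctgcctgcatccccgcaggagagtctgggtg
Fbln5: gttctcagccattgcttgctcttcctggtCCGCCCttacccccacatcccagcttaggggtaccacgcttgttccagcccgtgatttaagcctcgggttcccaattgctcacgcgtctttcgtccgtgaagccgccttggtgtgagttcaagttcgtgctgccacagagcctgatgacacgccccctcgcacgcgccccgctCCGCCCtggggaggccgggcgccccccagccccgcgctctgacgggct
Fbln1 held 1 E-box match, a motif found in 6.04% of the 27025 promoter windows of the same length, and no GC box match. Fbln5 held 2 GC box matches and no E-box match, and a GC box match was found in 33% of all windows. No matches overlapped. A GC content of 46.4% for Fbln1 and 65.2% for Fbln5 stood beside a median of 52% over all windows. The TATA box letters, present in 13% of all windows, matched neither. Windows were found in the RefSeq table for 4 of 10 members, and a match describes letters only.

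The crosslinking enzymes of the set, Lox and Loxl1, hardly varied. Their relatives outside the set, Loxl2, Loxl3 and Loxl4, varied by 1.80-fold, 4.78-fold and 1.70-fold over the 6 libraries. Lox encodes lysyl oxidase (chromosome 18, 52516067 to 52529867) and was at 3690, 3479 and 3045 CPM in p27OE 1, 2 and 3, against 3467, 3077 and 3030 CPM in EV control 1, 2 and 3. The groups overlapped, and the libraries numbered 1 were the highest of their groups by a small margin. The log2 difference between groups was 0.09 ± 0.11 (SE; edgeR adjusted p = 0.647). Loxl1, a lysyl oxidase needed to maintain elastic fibres in mice (chromosome 9, 58287738 to 58313186), was at 546, 580 and 576 CPM in p27OE and 568, 668 and 661 CPM in EV control. EV control 1 lay within the p27OE range, and the log2 difference was −0.16 ± 0.09 (SE; edgeR adjusted p = 0.338). The genes closest in pattern to Lox were Fastk, Hexim1 and Rchy1, with root mean square differences of 0.016, 0.018 and 0.019 log2 units, as genes with little variation lie close to one another on this measure.

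**Figure D2:**
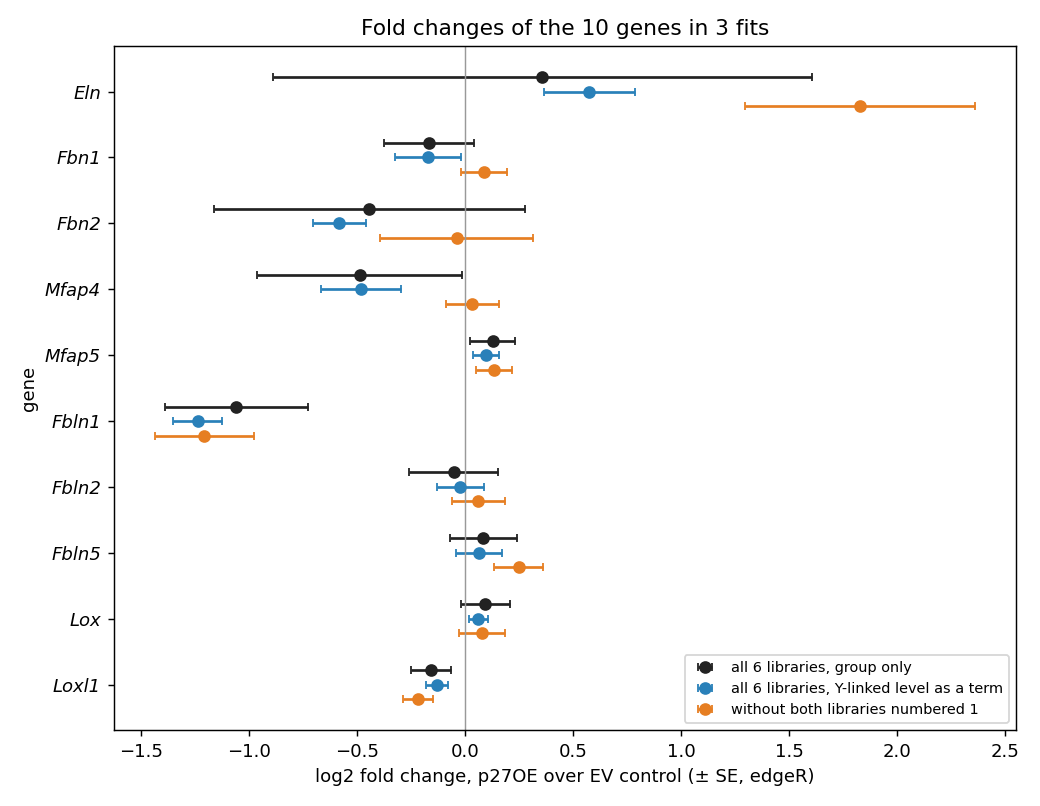
Log2 fold change of p27OE over EV control (± SE, edgeR) for each of the 10 genes in 3 fits: all 6 libraries with group alone, all 6 with the Y-linked term added, and without both libraries numbered 1. Fbln1 lay near −1.1 to −1.2 in all 3, while Eln ranged from 0.36 to 1.83.

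Once the Y-linked term was added, 2 of 10 members were called, both lower in p27OE, against 34% of all genes, 18% higher and 16% lower. Without both libraries numbered 1, 1 of 10 was called, again lower, against 16.7% of all genes and 8.9% lower. The term itself, which spans from no Y-linked counts to the highest library, passed for 7 of 10 members, 6 lower at high level and 1 higher, against 32.1% of all genes, and 15.7% lower. For Eln it was −3.78 ± 0.25 on the log2 scale (SE; edgeR adjusted p = 0.000101), for Fbn2 −2.12 ± 0.14 (adjusted p = 0.000107) and for Mfap4 −1.28 ± 0.21 (adjusted p = 0.00381). Fbln2 was the member with a higher level, 0.47 ± 0.13 (edgeR adjusted p = 0.0298). Fbln1 also passed, at −0.93 ± 0.13 (SE; edgeR adjusted p = 0.00199). Lox and Mfap5 passed with small values, −0.24 ± 0.05 and −0.25 ± 0.07, and Fbn1, Fbln5 and Loxl1 did not pass. The term was chosen with these data in view. As the low-level libraries are those numbered 1, a low Y-linked level cannot be told apart from whatever that number marks. Level and number were not the same throughout, since p27OE 2 was intermediate. Xist was high where the level was low, at 330, 164 and 0.457 CPM in p27OE 1, 2 and 3. In EV control 1, 2 and 3 it was at 407, 5.67 and 0.680 CPM. Macrophage markers were also highest in EV control 1, and their part in these values was not tested.

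**Figure D3:**
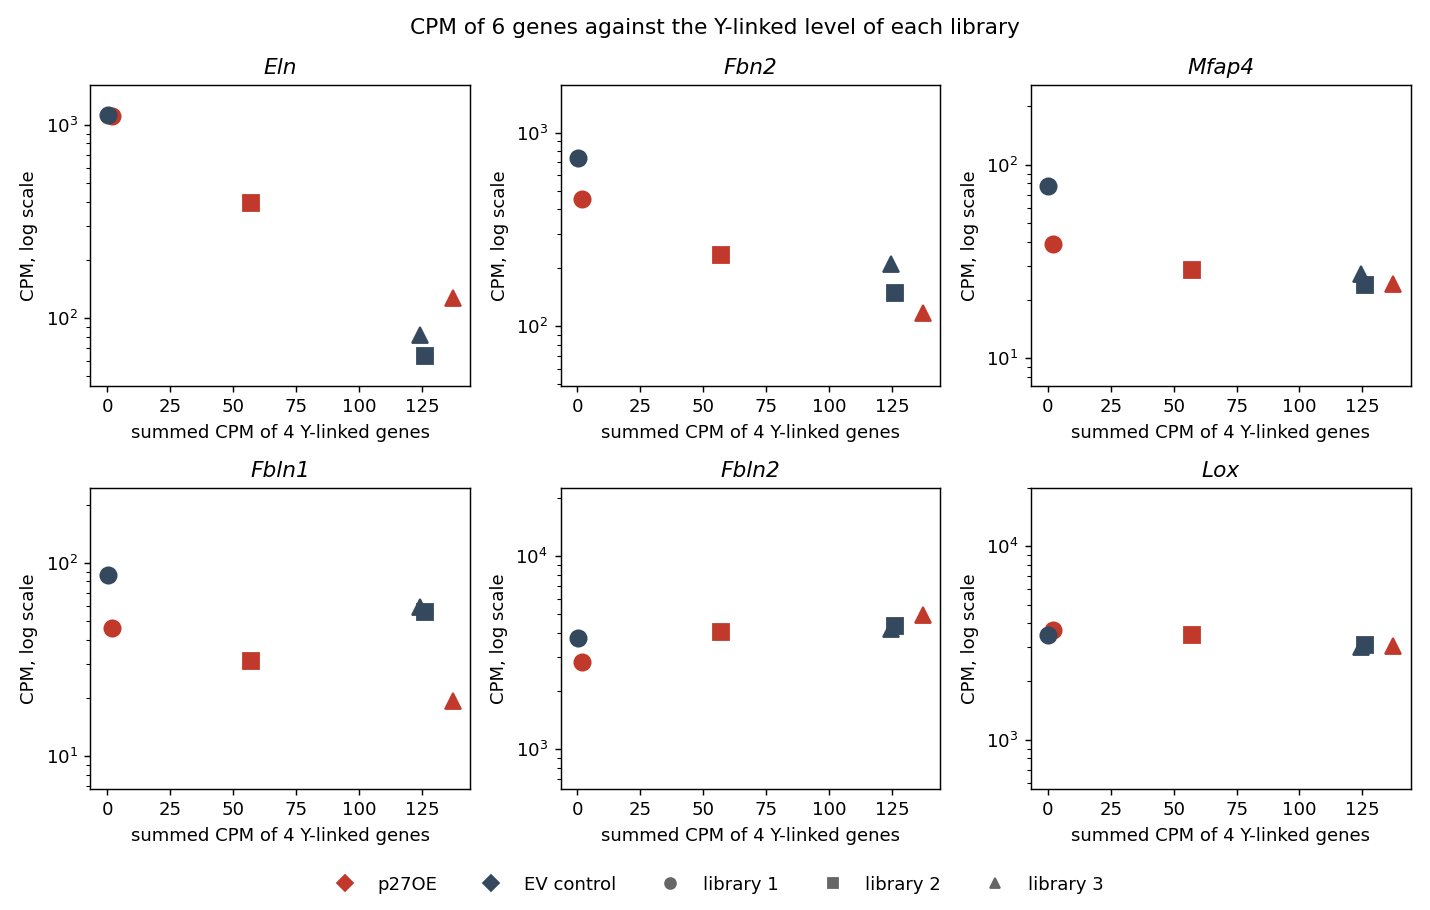
CPM (log scale) of Eln, Fbn2, Mfap4, Fbln1, Fbln2 and Lox against the summed CPM of 4 Y-linked genes, 1 point per library, red for p27OE and dark for EV control. Eln was lower at a high Y-linked level in both groups, while for Fbln1 the p27OE libraries lay below the EV control libraries at either end.

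The wider pathway was described in 3 lists. Of 21 partners in microfibril and elastic fibre assembly, 20 were tested, 12 above 0 and 8 below, with a median log2 fold change of 0.12. By edgeR 1 of 20 was called and by limma-voom 1, against 2.61% and 3% of all genes. DESeq2 called 5 of 20, against 16.6% of all genes, and 6 lay at an unadjusted p under 0.05, against 26%. Adamtsl5, which encodes a secreted protein that binds fibrillin-1, was the 1 gene called by edgeR, and it rose. Adamtsl5 was at 53.8, 54.4 and 54.1 CPM in p27OE 1, 2 and 3, against 37.7, 34.0 and 32.8 CPM in EV control 1, 2 and 3. Its groups did not overlap, as was so for 4 of the 20 genes and for 33.3% of all genes. The log2 difference was 0.64 ± 0.07 (SE; edgeR adjusted p = 0.0303), or 0.62 ± 0.06 in the model that includes the Y-linked level (adjusted p = 0.000899). With that term 34% of all genes were called. Omitting EV control 1 kept the call, and omitting any one of the other 5 libraries ended it. Of all genes, 12.9% were called without EV control 1. Only 0.00701% to 0.014% were called when any one of the other 5 was omitted.

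Of 13 relatives of lysyl oxidase, processing enzymes and copper carriers, 12 were tested, 5 above 0 and 7 below, with a median of −0.03. By edgeR 0 were called and by limma-voom 0, against 2.61% and 3% of all genes. DESeq2 called 2 of 12, against 16.6% of all genes, and 2 lay at an unadjusted p under 0.05, against 26%. Pcolce, an enhancer of the proteinase that cleaves procollagen, was at 561, 530 and 475 CPM in p27OE, against 697, 669 and 672 CPM in EV control (−0.38 ± 0.09 on the log2 scale, SE; edgeR adjusted p = 0.0683). Fn1, fibronectin, on which microfibrils are laid down, was at 9774, 11173 and 14991 CPM in p27OE, against 9307, 6913 and 7505 CPM in EV control (0.60 ± 0.20, SE; edgeR adjusted p = 0.121). Neither overlapped between groups, as was so for 3 of the 12 genes and for 33.3% of all genes. Atox1, a copper chaperone, was at 0.20 ± 0.10 (SE; edgeR adjusted p = 0.273).

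All 10 genes of the elastin receptor and of enzymes that degrade elastin were tested, 7 above 0 and 3 below, with a median of 0.11. By edgeR 0 were called and by limma-voom 1, against 2.61% and 3% of all genes. DESeq2 called 4 of 10, against 16.6% of all genes, and 4 lay at an unadjusted p under 0.05, against 26%. The smallest p belonged to the 3 parts of the elastin receptor complex, which are also lysosomal enzymes or their protector. The sialidase gene Neu1 was at 21.3, 22.4 and 24.6 CPM in p27OE, against 17.1, 15.7 and 16.4 CPM in EV control (0.47 ± 0.09, SE; edgeR adjusted p = 0.0512). Glb1, the beta-galactosidase gene whose splice form makes the elastin-binding protein, was at 0.48 ± 0.12 (edgeR adjusted p = 0.075), and Ctsa, protective protein, at 0.40 ± 0.10 (adjusted p = 0.0793). The groups did not overlap for these 3 genes, and for 5 of the 10 in all, against 33.3% of all genes, and the counts do not separate splice forms.

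**Figure D4:**
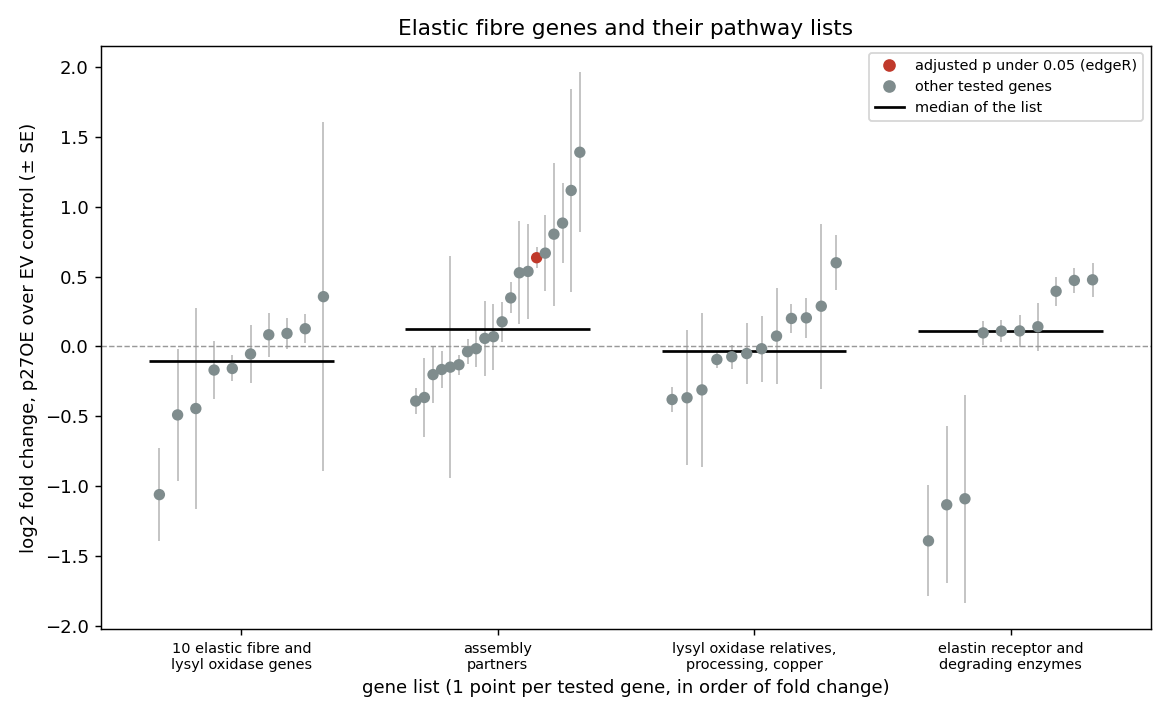
Log2 fold change of p27OE over EV control (± SE, edgeR) for each tested gene of the 10 members and of the 3 pathway lists, in order of fold change within a list, with a black bar at the list median. Adamtsl5 (red) was the only gene past an adjusted p of 0.05, and medians lay between −0.11 and 0.12.

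Over these 3 lists, 1 of 42 tested genes was called, against 2.61% of all genes. Once the Y-linked term was added, 6 assembly partners were called higher and 1 lower. Of the lysyl oxidase relatives and partners, 3 were called higher and 2 lower. In the receptor and degradation list 3 were called higher and 1 lower. Of all genes, 34% were called with this term, 18% higher and 16% lower. Markers of other tissues that make elastic fibres were also examined. Smooth muscle markers summed to 7214, 9990 and 15131 CPM in p27OE 1, 2 and 3 and to 5991, 10826 and 10907 CPM in EV control 1, 2 and 3, lowest in the libraries numbered 1 where Eln was highest. All 7 of these markers had a log2 fold change above 0, with a median of 0.23. By edgeR 0 of 7 were called and by limma-voom 0, against 2.61% and 3% of all genes. DESeq2 called 1 of 7, against 16.6% of all genes, and 1 lay at an unadjusted p under 0.05, against 26%. With the Y-linked term 6 of 7 were called higher, against 18% of all genes. Acta2, smooth muscle actin, was the most abundant and was at 0.23 ± 0.33 on the log2 scale (SE; edgeR adjusted p = 0.699). Myh11, smooth muscle myosin, also named after its values were seen, was the 1 marker of 7 without overlap, against 33.3% of all genes. Myh11 was at 62.1, 94.2 and 179 CPM in p27OE, against 39.3, 34.9 and 46.2 CPM in EV control (1.48 ± 0.38, SE; edgeR adjusted p = 0.0754). Chondrocyte markers summed to 443 to 850 CPM in p27OE and 329 to 524 CPM in EV control, most of it Col2a1, the collagen of cartilage. Of the 5 chondrocyte markers tested, 4 were highest in the library numbered 1 of both groups, as Eln was. Col2a1 was the exception, at 646 CPM in p27OE 1 and 202 CPM in EV control 1, its lowest library. How many of all genes were highest in both libraries numbered 1 was not counted. The part of any of these markers in the values of the 10 genes was not tested.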

How the data were processed

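The authors deposited raw counts: whole numbers of reads for each gene symbol, with no scaling. Per the submitters' processing notes, the tools were featureCounts 1.4.6, Subread, TopHat2 2.0.14 and Bowtie2 2.2.6, with genome mm10; for annotation, strand setting and filters, nothing is given in the sources used here. Each of 6 columns matched 1 sample by title, and 0 rows were blank or totals. TruSeq (kit v2) library preparation is given per the labels' protocols.

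filterByExpr left 13990 genes. Counts were scaled by TMM and tested with edgeR 4.0.16 (glmQLFit, robust; glmQLFTest, two-sided; R 4.3.3), group as the only term, adjusted over all genes tested. CPM used the TMM factors, and log2 CPM a prior count of 2. On simulated counts the group-only fit recovered 23.9% of 1.5-fold, 73.1% of 2-fold and 95.5% of 4-fold changes, with 12 false calls among 140. Each gene was drawn independently there, without differences shared between libraries, so the simulation cannot show how the fit performs on these libraries. The members, gene lists, Y-linked term and omissions were chosen with earlier results of these data known. Alternatives were DESeq2 1.42.0, limma-voom (limma 3.58.1), scaling by RLE, upper quartile or totals, a filter of 1 CPM in 3 libraries or none, the replicate block, the Y-linked term, Cdkn1b left out, and libraries left out singly or both numbered 1. Named were all members, Cdkn1b, the called genes of each pathway list or else its 3 of smallest p, the most abundant marker of each cell type list, and for Eln and Lox the 3 nearest patterns (mean log2 CPM of at least 2). Highest in their lists were also Lyz2, Egfl7 and Krt18, each below 35 CPM. Coordinates are from GENCODE M21 (GRCm38, the assembly of mm10) and promoter sequences from RefSeq (GRCm38.p6). Pairs of libraries within a group differed with a mean chi-square per gene of 6.49 to 188, beyond sampling noise.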

Additional observations from a re-analysis of the deposited data

How the results depend on the processing

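No member was called higher under any setting, and Fbln1, Mfap5, Lox and Loxl1 kept their direction in all 17 alternatives. The count of members called lower was 1 with DESeq2, 1 with the replicate block, 2 with the Y-linked term and 1 when both libraries numbered 1 were omitted, in place of 0. At these settings 16.6%, 17.2%, 34% and 16.7% of all genes were called in either direction, in place of 2.61%. Fbln1 was at −1.06 (DESeq2), −1.12 (block), −1.24 (Y-linked term) and −1.21 (without both), all called, and Fbn2 at −0.58 with the Y-linked term. Without both libraries numbered 1, the sign turned for Fbn1 (0.088), Fbln2 (0.060) and Mfap4 (0.032), none called. With each library left out in turn, Eln ran from −0.71 to 2.89, Fbn1 from −0.31 to 0.083, Fbn2 from −1.07 to 0.58, Fbln2 from −0.25 to 0.12, Fbln5 from −0.054 to 0.24 and Mfap4 from −0.78 to 0.25, none called. Pathway genes called, in place of 1, were 2 with the stricter filter and 2 with limma-voom, where 4.04% and 3% of all genes were called. They were 11 with DESeq2, 10 with the block, 16 with the Y-linked term and 11 when both libraries numbered 1 were omitted. The shares of all genes at these 4 settings are those given above. With single libraries left out, 0 to 7 were called, 7 being without EV control 1, where 12.9% of all genes were called. All genes called went from 365 to 2321 with DESeq2, 2410 with the block, 4761 with the Y-linked term, 2334 without both, and 1 to 1827 with single libraries left out (1827 without EV control 1). The share of higher calls was 67.7%, 76% with total-count scaling and 49.3% with DESeq2. The cause was not tested. For the block, deviations from the group means correlated across genes by 0.669, 0.043 and 0.495 between libraries numbered 1, 2 and 3; library 2 of EV control was closest to library 3 of p27OE (0.555), and the numbers were not treated as pairing samples.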

Other observations

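The balance of Eln to Fbn1 counts was 0.898, 0.342 and 0.0947 in p27OE 1, 2 and 3 and 0.602, 0.0577 and 0.0672 in EV control 1, 2 and 3, and that of Lox to Loxl1 was 6.76, 6.00 and 5.29 in p27OE and 6.10, 4.60 and 4.59 in EV control. Both ratios were highest in the library numbered 1 of each group, and the groups overlapped in both. These ratios were formed after the values were seen and were not tested.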
